A study of Mus musculus with 12 samples.

Results

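Annexins and S100 proteins are 2 families of calcium-responsive proteins, and their transcripts were followed here in the mouse retina with and without oxygen-induced retinopathy (OIR). The genes were chosen by symbol: Anxa followed by a number, S100a followed by a number, S100b, S100g, S100z and S100pbp. This gave 29 of the 57073 gene models, namely 12 annexins, 16 S100 genes and S100pbp, which encodes a binding partner of an S100 protein and is not itself a family member. Those tested were selected on 1 measured value, the mean count over all 12 libraries. The 17 genes with a mean of at least 10 counts were tested and the other 12 were not. The tested gene with the lowest mean was Anxa9 (30.4 counts), and the untested one with the highest was S100a9 (5.92 counts). All 17 would also have reached the minimum on the normoxic libraries alone, so none was tested only because OIR had raised it.

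The libraries were made from poly-A RNA of whole retinas of C57BL/6 mice at postnatal day 17. There were 6 from mice in normoxic air and 6 from the OIR group, which the labels describe by 75% oxygen. No genetic alteration is named for either group. In the OIR model, high oxygen early in life makes part of the retinal capillaries regress, and the return to room air leaves a hypoxic retina that grows abnormal vessels. The labels do not say how long oxygen was given, whether retinas were pooled, or whether the libraries were made from different mice, so the p-values measure the spread between libraries, which may be partly technical. Total counts were 17361979 to 19390627 per normoxic and 17366045 to 21594618 per OIR library. In earlier results on these data, libraries numbered 1 to 3 and 4 to 6 were taken as 2 sets within a group. Only the normoxic libraries separated clearly by set. Their chi-square over its degrees of freedom was 3.04 to 4.06 for pairs within a set and 12.0 to 15.3 between sets. In OIR the sets were less distinct: it was 4.78 for replicates 3 and 4, 5.07 for 1 and 3, and 8.06 for 4 and 6. The labels name no batch for these sets. OIR was therefore also compared with normoxic within each set, and these values are given where they change a call.

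Annexins share a folded core that attaches to acidic membrane lipids when calcium rises, and they act in membrane repair, vesicle traffic and the handling of dying cells. S100 proteins are small EF-hand proteins that bind calcium as dimers and then dock on targets, among them the free N-terminal tails of particular annexins: S100A10 binds annexin A2 and S100A11 binds annexin A1. In nervous tissue S100B is known as a protein of astrocytes and Müller cells, and S100A8 with S100A9 as the calprotectin of neutrophils and monocytes.

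Most of the expressed members of both families were higher in OIR and none was lower. Of the 17 tested genes, 14 (82.4%) rose, none fell and 3 (Anxa9, S100b and S100pbp) did not pass edgeR's quasi-likelihood test with Benjamini-Hochberg adjustment at 0.05. Of the 18336 genes tested, 31.1% passed in either direction, 16.4% higher and 14.8% lower. By family, 8 of 9 tested annexins and 6 of 7 tested S100 genes rose. The median log2 fold change was 0.56 over the tested annexins and 0.84 over the tested S100 genes, against -0.01 over all tested genes. At least 2-fold rises were found in 5 members (5.04% of all tested genes rose so far): S100a6, Anxa2, S100a11, Anxa3 and S100a16. These genes were grouped with results of this comparison known, so the counts describe the families and are no independent evidence. RNA of whole retinas cannot tell more cells of a type from more RNA per cell.

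**Figure D1:**
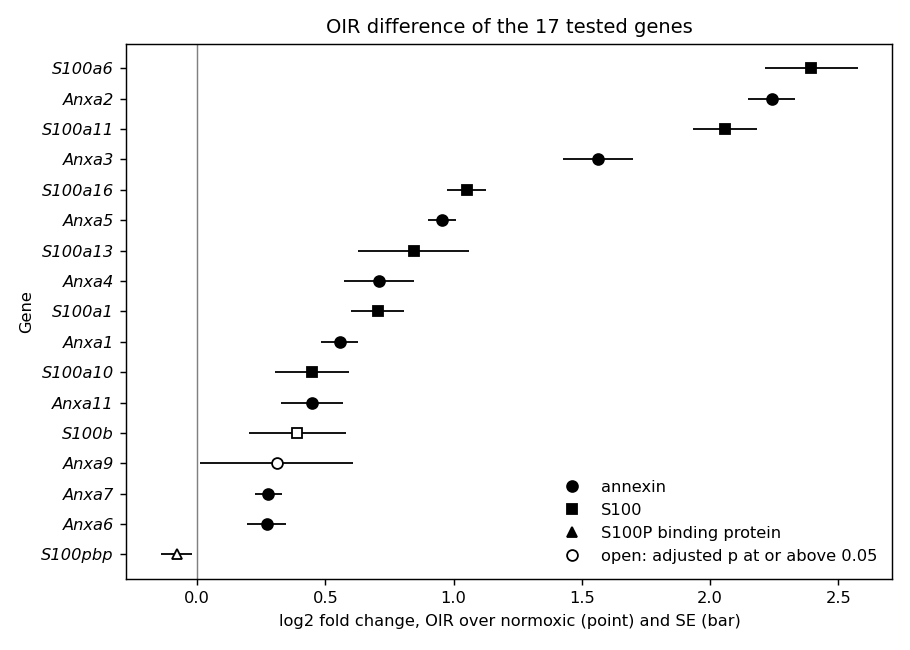
log2 fold change of each of the 17 tested genes (points, OIR over normoxic, edgeR fit over 6 libraries a group) with its SE (bars); circles are annexins, squares S100 genes, the triangle S100pbp, and open symbols did not pass an adjusted p of 0.05. S100a6, Anxa2 and S100a11 lie above 2, and S100pbp is the single gene below 0.

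Markers of several other cell types moved in the same direction. The summed FPKM (a count scaled by gene length and library size) of 8 endothelial markers was 55.8 to 73.8 in normoxic and 94.3 to 137 in OIR libraries, and 7 of the 8 rose. Over 8 pericyte and smooth muscle markers it was 37.2 to 50.1 against 107 to 157, and 8 rose. Over 6 astrocyte markers it was 14.5 to 17.5 against 54.5 to 92.7, and 6 rose. Over 9 microglia and macrophage markers it was 29.6 to 37.8 against 64.6 to 96.0, and 6 rose while Lyve1 fell. Of the 6, Mrc1 had 6 normoxic and 373 OIR counts and so reached the count minimum through OIR alone. Monocyte markers summed to 3.11 to 5.02 against 10.5 to 26.5 (of 5 listed, Lyz2 and Plac8 were tested and rose, Plac8 having reached the minimum through OIR alone with 25 and 137 counts), and fibroblast markers to 2.37 to 5.32 against 14.0 to 22.9 (3 of 4 tested rose, of 6 listed). The 7 Müller glia markers went the other way, with 4 lower and 1 higher (805 to 951 against 660 to 850). The 10 lens markers summed to 6.17 to 35.2 against 3.32 to 11.8, with 4 of 9 tested lower and Lim2 at 0 throughout. Of these 4, Crybb2, Crygs and Bfsp2 reached the minimum through the normoxic libraries alone, as did Trp63 of the surface epithelium list. Of 5 red cell markers 4 were tested and rose (70.0 to 169 against 141 to 300). Rod markers (1 of 6 higher, 1 lower), pigment epithelium markers (1 of 7 lower) and surface epithelium markers (1 tested of 7, Trp63, lower, with Krt14 and Dsg3 at 0) had sums that overlapped between groups. The Müller glia and pigment epithelium lists share the gene Rlbp1, so their sums are not independent. The part of any of these cell types in the annexin and S100 values was not tested.

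Anxa2 had the highest fold change of the annexins. The gene (ENSMUSG00000032231, chromosome 9, 69360902 to 69399077, plus strand, GRCm39) encodes the annexin that gathers plasminogen and its activator at the cell surface. Its normoxic libraries held 3.06, 3.33, 3.40, 4.30, 3.44 and 4.18 FPKM for replicates 1 to 6, and the OIR libraries 18.0, 20.3, 14.5, 16.6, 16.6 and 15.98. The lowest OIR library was thus well above the highest normoxic one. The rise was 4.72-fold, a log2 fold change of 2.24 ± 0.09 (SE; edgeR adjusted p = 6.4e-12), higher in 6 of 6 OIR libraries. A gene model on the opposite strand, Gm16144, shares 2570 bases of the Anxa2 span and had 12 counts in all libraries together, against 8504 for Anxa2.

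The S100 genes with the highest fold changes were S100a6 and S100a11. S100a6 (ENSMUSG00000001025, chromosome 3, 90520189 to 90531488, plus strand) encodes calcyclin, an S100 protein of proliferating and stressed cells. It stood at 1.55, 2.27, 2.36, 1.40, 2.04 and 2.19 FPKM in normoxic replicates 1 to 6 and at 13.6, 13.3, 10.7, 8.48, 6.84 and 8.88 in OIR replicates 1 to 6. All OIR libraries lay above all normoxic ones, and OIR replicates 1 to 3 lay above OIR replicates 4 to 6. The fold change was 5.26 (log2 2.40 ± 0.18 SE, edgeR adjusted p = 1.5e-08). S100a11 (ENSMUSG00000027907, chromosome 3, 93427795 to 93433594, plus strand), whose protein docks on annexin A1, stood at 6.03, 7.36, 8.79, 9.28, 10.4 and 9.17 FPKM in normoxic and 34.2, 38.3, 31.0, 30.0, 39.8 and 37.9 in OIR replicates. Again the groups did not overlap, and the rise was 4.16-fold (log2 2.06 ± 0.12 SE, edgeR adjusted p = 1.1e-09). The table also lists a pseudogene named S100a11-ps, so reads of S100a11 are less certain than those of a gene without a copy.

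The stretches upstream of these 3 genes are shown because they lead the rise, next to the one that S100a13 partly shares with its neighbour S100a1. The sequences are RefSeq windows of 300 bases in build GRCm38.p6 that run from upstream of a gene's start to just past it. That is a different build from the GRCm39 coordinates of the counts. Of the 29 genes, 23 had at least 1 window, 31 windows in all. Capitals mark every match, on either strand, to the AP-1 motif TGANTCA, the STAT motif TTCNNNGAA, the NF-kB motif GGGANTTCC, the core of the hypoxia response element ACGTG or the TEAD motif GGAATG.
Anxa2 (GRCm38.p6, chr9:69453433-69453732, plus strand): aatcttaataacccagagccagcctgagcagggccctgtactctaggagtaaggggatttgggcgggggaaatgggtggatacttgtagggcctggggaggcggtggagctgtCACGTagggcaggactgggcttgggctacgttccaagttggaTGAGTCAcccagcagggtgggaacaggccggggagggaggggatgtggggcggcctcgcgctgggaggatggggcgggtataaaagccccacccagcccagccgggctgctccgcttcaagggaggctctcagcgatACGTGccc
S100a6 (GRCm38.p6, chr3:90612644-90612943, plus strand): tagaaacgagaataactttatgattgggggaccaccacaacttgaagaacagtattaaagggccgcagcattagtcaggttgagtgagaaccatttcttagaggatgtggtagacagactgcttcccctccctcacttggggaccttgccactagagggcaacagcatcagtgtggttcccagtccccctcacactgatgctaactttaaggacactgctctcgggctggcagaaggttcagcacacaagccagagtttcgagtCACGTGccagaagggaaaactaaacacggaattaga
S100a11 (GRCm38.p6, chr3:93520246-93520545, plus strand): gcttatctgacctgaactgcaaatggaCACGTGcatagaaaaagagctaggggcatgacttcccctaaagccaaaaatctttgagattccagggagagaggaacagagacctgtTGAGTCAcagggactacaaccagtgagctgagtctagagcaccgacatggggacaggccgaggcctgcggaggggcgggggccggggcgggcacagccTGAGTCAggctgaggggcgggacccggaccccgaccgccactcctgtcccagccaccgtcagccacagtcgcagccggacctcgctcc
S100a13 (GRCm38.p6, chr3:90514185-90514484, plus strand): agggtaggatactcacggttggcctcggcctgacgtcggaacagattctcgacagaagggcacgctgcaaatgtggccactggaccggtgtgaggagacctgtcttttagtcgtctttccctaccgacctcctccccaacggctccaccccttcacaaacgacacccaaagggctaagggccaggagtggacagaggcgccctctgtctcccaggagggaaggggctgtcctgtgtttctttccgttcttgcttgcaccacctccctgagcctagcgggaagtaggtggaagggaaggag
In the Anxa2 window an AP-1 match began 95 bases before the start, and matches to ACGTG began 137 bases before and 42 bases after it. S100a11 had AP-1 matches beginning 136 and 38 bases before the start and an E-box palindrome, which reads ACGTG on both strands, 223 bases before it. In the S100a6 window the same palindrome began 14 bases after the start, and no other match was found. The S100a13 window held no match to these letters. The AP-1 motif was found in 4 of the 31 member windows (12.9%) and in 7.81% of all 32851 windows, and ACGTG in 7 of 31 (22.6%) against 19.6%. TEAD letters were in 3 member windows (9.68%, against 14.7%), STAT letters in 1 (3.23%, against 8.3%), and NF-kB letters in none (1.68% of all windows). A match describes letters, not a bound factor, and these shares were not tested.

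The other annexins that rose did so by smaller factors. Anxa3 (chromosome 5, 96941198 to 96993825), whose protein is found in microglia and sprouting endothelium, ranged from 1.37 to 2.65 FPKM (median 1.93) in normoxic and from 4.69 to 6.70 (median 5.92) in OIR libraries, a 2.96-fold rise (log2 1.56 ± 0.14 SE, edgeR adjusted p = 1.1e-07). Anxa5 (chromosome 3, 36503072 to 36530043) encodes the annexin that binds phosphatidylserine exposed on dying cells and is used as a stain for them. It ranged from 21.0 to 24.5 FPKM (median 21.8) against 38.5 to 45.4 (median 43.7), a 1.94-fold rise (log2 0.96 ± 0.05 SE, edgeR adjusted p = 4.4e-10). Neither gene had an OIR library within its normoxic range.

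Anxa4, an annexin of epithelia, had 0.675 to 0.975 FPKM (median 0.759) in normoxic and 1.06 to 1.60 (median 1.26) in OIR libraries (1.64-fold, edgeR adjusted p = 5.6e-04). Anxa1 (chromosome 19, 20350792 to 20368308), a glucocorticoid-induced brake on inflammation that acts through formyl peptide receptors, had 8.51 to 11.1 FPKM (median 9.4) against 12.8 to 15.7 (median 13.4) (1.47-fold, log2 0.56 ± 0.07 SE, edgeR adjusted p = 9.6e-06). Anxa11, an annexin of RNA granules and vesicle transport, had 1.11 to 1.39 FPKM (median 1.28) against 1.504 to 2.11 (median 1.67) (1.36-fold, edgeR adjusted p = 0.0083). None of these 3 genes overlapped between groups. Gene models on the opposite strand share 17517 bases with Anxa1 (1500015L24Rik, 5 counts) and 13490 with Anxa11 (Anxa11os, 0 counts). The sources used here do not give the strand setting of the counting.

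The smallest rises past the threshold were in Anxa7 and Anxa6. Anxa7 stood at 9.33 to 10.8 FPKM (median 10.1) in normoxic and 10.99 to 13.1 (median 12.04) in OIR libraries, without overlap (1.21-fold, log2 0.28 ± 0.05 SE, edgeR adjusted p = 5.3e-04). Anxa6, the annexin with a duplicated core, overlapped between groups, at 17.0 to 22.5 FPKM (median 19.6) against 21.2 to 27.2 (median 24.4) (1.21-fold, log2 0.27 ± 0.08 SE, edgeR adjusted p = 0.0101). Anxa9 stood at 0.299 to 0.947 against 0.452 to 1.38 FPKM and did not pass (log2 0.31 ± 0.30 SE, edgeR adjusted p = 0.47). Its SE was about as large as its difference. In 11 of the 17 tested members the ranges lay apart, each time with OIR higher. Among all tested genes 16.4% did not overlap, 9.12% with OIR higher.

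Among the remaining S100 genes, S100a16 had the highest normoxic level. S100a16 (chromosome 3, 90444561 to 90450458), a broadly expressed member, stood at 21.0 to 25.9 FPKM (median 21.6) in normoxic and 41.4 to 54.1 (median 43.7) in OIR libraries, a 2.07-fold rise (log2 1.05 ± 0.08 SE, edgeR adjusted p = 8.2e-09) with no overlap. S100a1 and S100a13 lie head to head on opposite strands of chromosome 3, at 90418341 to 90421699 and 90421742 to 90431888, with 42 bases between them in the deposited coordinates. In the RefSeq windows their starts are 105 bases apart, so the windows share 204 bases. S100a1, known for calcium cycling in muscle, stood at 14.4 to 18.5 FPKM (median 17.3) against 22.2 to 33.4 (median 27.9), with no overlap (1.63-fold, log2 0.70 ± 0.10 SE, edgeR adjusted p = 3.5e-05). S100a13, known for the non-classical release of FGF1, had 1.48 to 4.11 FPKM (median 2.15) against 3.62 to 4.98 (median 4.27) (1.80-fold, log2 0.84 ± 0.22 SE, edgeR adjusted p = 0.0058). Its groups overlapped through normoxic replicate 3, at 4.11 FPKM, while the other normoxic libraries were at 1.48 to 2.60.

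**Figure D2:**
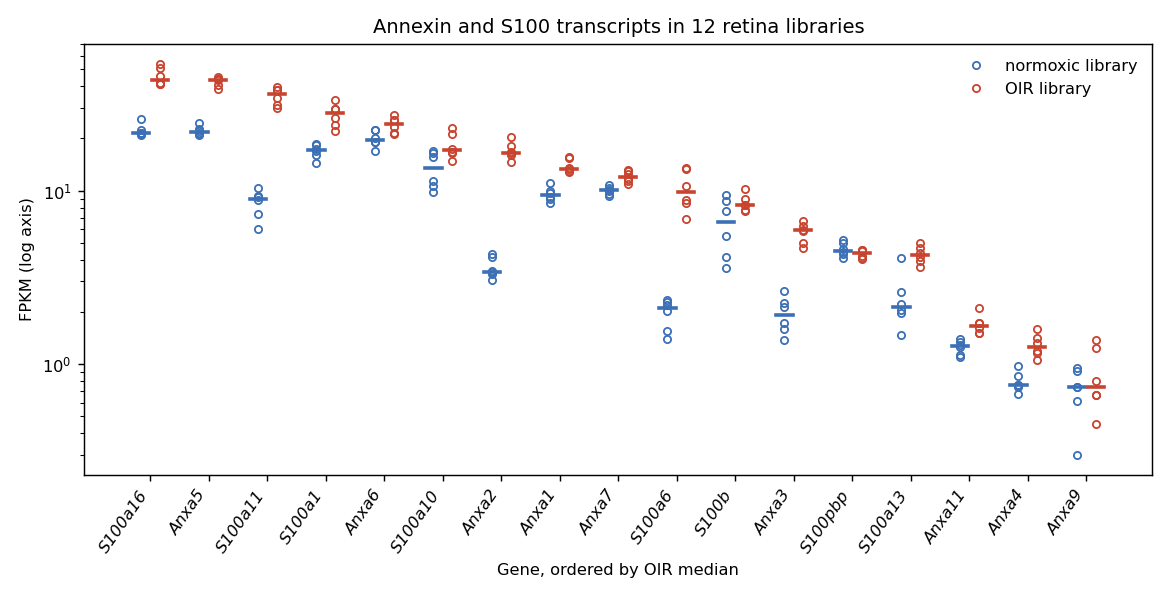
FPKM of the 17 tested genes on a log axis, with 1 circle per library (blue normoxic, red OIR, 6 each) and a bar at each group's median, ordered by the OIR median. S100a16 and Anxa5 stand highest in OIR, at medians of 43.7 FPKM each, and S100a11 moves from a normoxic median of 8.98 to 36.0.

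The order of levels within the families differed between the groups. By median FPKM over the 16 tested annexins and S100 genes, the normoxic order began with Anxa5 (21.8), S100a16 (21.6), Anxa6 (19.6), S100a1 (17.3) and S100a10 (13.5). In OIR it began with S100a16 (43.7), Anxa5 (43.7), S100a11 (36.0), S100a1 (27.9) and Anxa6 (24.4). S100a11 moved from place 8 to place 3 and Anxa2 from place 10 to place 7. Anxa5 and S100a16 overlapped in both groups, so their order is not resolved. Other neighbours overlapped too. In OIR, S100a11 (30.0 to 39.8) overlapped Anxa5 (38.5 to 45.4), and Anxa2 (14.5 to 20.3) overlapped S100a10 (14.8 to 22.9). The places are thus those of the medians only. The sources used here do not say how the gene length in FPKM was set, which bears on levels between genes but not on a gene's fold change. Summed over all annexins, the level was 66.6 to 72.3 FPKM in normoxic and 115 to 129 in OIR libraries, and over all S100 genes 66.0 to 84.0 against 139 to 164.

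Anxa2 and S100a10 encode the subunits of a single complex, and their transcripts changed unequally. S100a10 (chromosome 3, 93462387 to 93471950), an S100 protein that holds its active shape without calcium, stood at 9.85 to 16.9 FPKM (median 13.5) in normoxic and 14.8 to 22.9 (median 17.1) in OIR libraries. The groups overlapped, and the fold change was 1.36 (log2 0.45 ± 0.14 SE, edgeR adjusted p = 0.023). This call was lost without normoxic replicate 1, 2 or 3 or OIR replicate 2 or 6 (edgeR adjusted p = 0.0534 to 0.0602), and within libraries 4 to 6 (log2 0.22, edgeR adjusted p = 0.255). Per library, the Anxa2 FPKM divided by the S100a10 FPKM was 0.209 to 0.338 in normoxic (median 0.272) and 0.698 to 1.04 in OIR (median 0.984). These ranges lie apart, and they are given as a description, without a test.

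S100b was the only member whose OIR difference passed the test for dependence on the library set. Its gene (ENSMUSG00000033208, chromosome 10, 76089687 to 76096993, plus strand) stood at 5.51, 4.15, 3.61, 8.76, 7.63 and 9.43 FPKM in normoxic replicates 1 to 6 and at 8.30, 8.27, 8.99, 10.2, 7.62 and 7.69 in OIR replicates 1 to 6. Normoxic replicates 1 to 3 were low, and normoxic replicates 4 to 6 were within the range of the OIR libraries. Over all libraries S100b did not pass (log2 0.39 ± 0.19 SE, edgeR adjusted p = 0.13). Within libraries 1 to 3 it rose by 0.94 on the log2 scale (edgeR adjusted p = 4.2e-05), and within 4 to 6 the log2 difference was 0.00 (edgeR adjusted p = 0.998). The difference between the sets was -0.94 ± 0.21 (SE) and passed the interaction test over all genes (edgeR adjusted p = 0.0083). That test called 8.15% of the genes and 1 of the 17 members, so the members do not stand out in it. The sets were defined from earlier results of these data, so its p-values are no independent evidence. Before adjustment the interaction p-values (edgeR) of Anxa1, Anxa2, Anxa3, Anxa6, S100a10 and S100a13 were 0.0127 to 0.0428. In simulated data the test recovered 26% of 1.5-fold and 54% of 2-fold set differences. The simulated spread came from a fit on group alone, which counts variation between sets as noise, so recovery in the real data may differ. The test can still miss such differences in other members. S100b shares 1731 bases with Dip2a on the opposite strand, which had 10786 counts against 2481 for S100b.

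Beside these values, the sums of many marker lists differed between the sets as well. Müller glia markers summed to 929 to 951 FPKM in normoxic and 660 to 761 in OIR libraries 1 to 3, and to 805 to 852 and 781 to 850 in libraries 4 to 6. Astrocyte markers summed to 14.5 to 16.9 in normoxic and 72.3 to 92.7 in OIR libraries 1 to 3, and to 17.1 to 17.5 and 54.5 to 66.7 in libraries 4 to 6. The Müller ranges of the groups lay apart in libraries 1 to 3 and overlapped in 4 to 6, while the astrocyte ranges lay apart in both. In the normoxic libraries the sets also lay apart for the markers of ganglion cells (234 to 281 in 1 to 3, 337 to 354 in 4 to 6), red cells (125 to 169 and 70.0 to 73.9), pigment epithelium (219 to 229 and 250.7 to 262), endothelium (55.8 to 61.1 and 63.8 to 73.8), pericytes (37.2 to 43.5 and 44.3 to 50.1) and surface epithelium (0.414 to 0.464 and 0.540 to 0.792). In the OIR libraries they lay apart for pigment epithelium (173 to 184 and 209 to 235), red cells (226 to 300 and 141 to 222), monocytes (21.7 to 26.5 and 10.5 to 19.6) and fibroblasts (17.9 to 22.9 and 14.0 to 14.3). The other 4 lists (microglia and macrophages, neutrophils, lens and rods) overlapped between the sets in both groups. The part of these lists in the S100b difference was not tested. Apart from S100b, 5 other members (Anxa2, Anxa3, Anxa6, S100a10 and S100a11) had all of normoxic replicates 4 to 6 above normoxic replicates 1 to 3, and Anxa7 had them below. In OIR, Anxa4, Anxa7 and S100a6 were higher in replicates 1 to 3 and S100a13 in replicates 4 to 6. The share of all genes whose sets lie apart in this way was not counted. These separations therefore describe the libraries and are not read as a trait of the members.

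**Figure D3:**
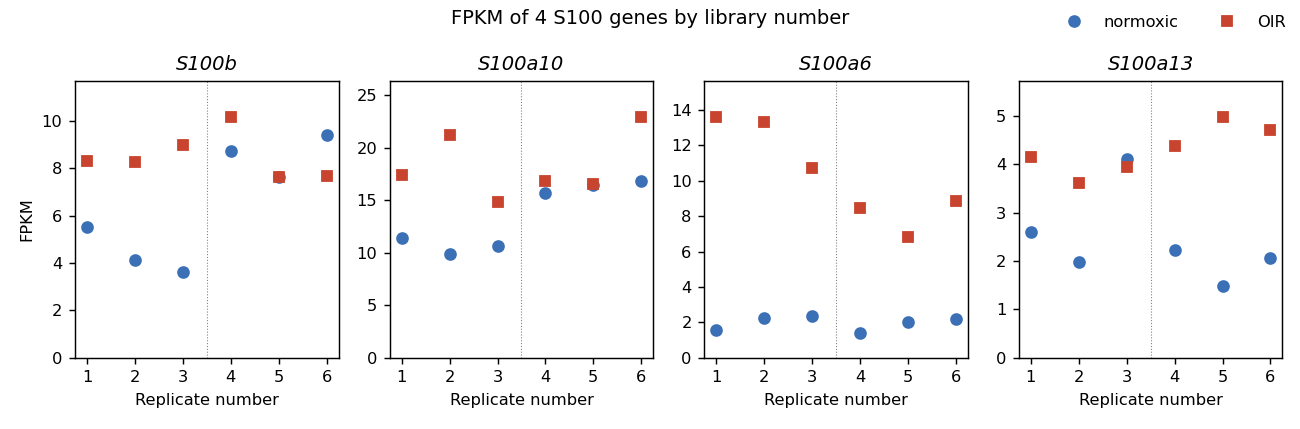
FPKM (from 0) of S100b, S100a10, S100a6 and S100a13 against replicate number, with circles for normoxic and squares for OIR libraries and a dotted line between numbers 3 and 4; numbers shared by the groups do not pair the libraries. S100b and S100a10 are low in normoxic replicates 1 to 3 (S100b at 3.61 to 5.51) and meet the OIR level in 4 to 6, while S100a6 is lower in OIR replicates 4 to 6 (6.84 to 8.88).

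Within libraries 1 to 3, 13 members passed, all higher (20.4% of all genes were called higher there), and within 4 to 6, 11 passed, all higher (11.7%). Members whose call over all libraries was not met within 1 to 3 were Anxa11 (log2 0.28, edgeR adjusted p = 0.194) and S100a13 (0.44, adjusted p = 0.247). Within 4 to 6 they were Anxa4 (log2 0.54, edgeR adjusted p = 0.0572), Anxa6 (0.13, adjusted p = 0.361) and S100a10. S100a13 differed most in the other direction, with 0.44 within 1 to 3 and 1.30 within 4 to 6, but the interaction did not pass (log2 0.86 ± 0.40 SE, edgeR adjusted p = 0.198). For the leading genes the log2 values in the sets were 2.43 and 2.06 (Anxa2), 2.60 and 2.13 (S100a6), 2.22 and 1.92 (S100a11) and 1.82 and 1.37 (Anxa3).

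**Figure D4:**
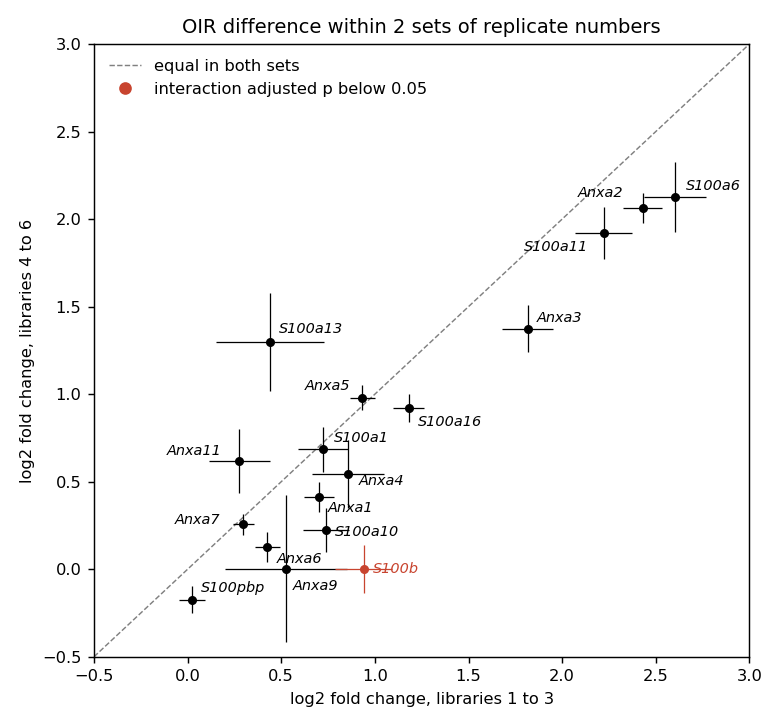
log2 fold change (OIR over normoxic) within libraries 4 to 6 against that within libraries 1 to 3 for the 17 tested genes, with SE bars on both axes and a dashed line of equality. S100b, in red, is at 0.94 and 0.00, and S100a6, Anxa2 and S100a11 lie near or above 2 in both sets.

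On chromosome 3, 13 of the 16 S100 genes were listed. In the deposited coordinates 11 of them lie within 185 kb, from S100a1 to S100a9. S100a11 begins 3.01 Mb from the start of S100a1, with S100a10 beyond it. Transcript levels along the 11 were uneven: S100a1, S100a13, S100a16 and S100a6 were tested and all rose, while the 7 in between or beyond had too few counts. S100a6 had 295 normoxic and 1565 OIR counts summed over libraries. S100a6 begins 102 kb from S100a1. Its nearest neighbours upstream, S100a5 at 97.5 kb and S100a4 at 92.7 kb, had 1 count and 0 counts in all 12 libraries together. S100a4, a gene of motile and fibroblast-like cells and macrophages, spans 2275 bases, of which 2115 are shared on the same strand with the gene model Gm42674, also listed at 0. The sources used here do not say how reads in shared stretches were counted, so S100a4 is reported only as listed at 0. S100a2 and S100a3 share 6873 bases on the same strand and are uncertain for the same reason (7 and 19 counts).

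**Figure D5:**
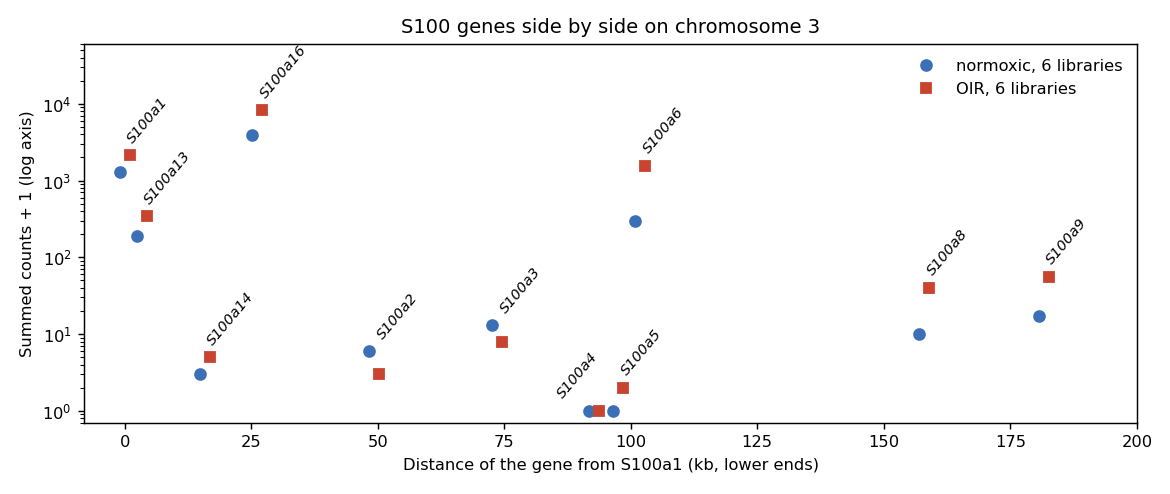
Counts summed over 6 libraries, plus 1, on a log axis, for the 11 S100 genes within 185 kb on chromosome 3, against their distance from S100a1; circles are normoxic, squares OIR. S100a6 rises from 295 to 1565 counts next to S100a4 and S100a5, which have 0 counts and 1 count.

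S100a8 and S100a9, the subunits of calprotectin, were below the test's minimum. S100a8 had 3, 3, 1, 2, 0 and 0 counts in normoxic and 0, 13, 8, 6, 3 and 9 in OIR replicates 1 to 6. S100a9 had 2, 3, 5, 1, 4 and 1 in normoxic and 5, 19, 2, 13, 2 and 14 in OIR replicates. In both genes the groups overlapped and OIR replicate 2 was highest. The ratios of summed counts, scaled by library totals, were 4.29 (95% counting interval 2.05 to 10.1) and 3.41 (1.92 to 6.37), where the interval covers counting error only and not the spread between libraries. In a fit without the count minimum, S100a9 passed (log2 1.75 ± 0.62 SE, edgeR adjusted p = 0.0489) and S100a8 did not (2.03 ± 0.76 SE, adjusted p = 0.0650). Of 10 neutrophil markers, the single tested one, Csf3r, did not pass (log2 0.07, edgeR adjusted p = 0.78), and Mpo was at 0 in all libraries. Normoxic and OIR counts were 0 and 6 for Ly6g, 0 and 5 for Cxcr2, 1 and 12 for Retnlg, 4 and 11 for Mmp8, 8 and 20 for Ngp, and 9 and 23 for Ltf. For Camp they were 12 and 7, and for Elane 2 and 1. Their summed FPKM was 0.964 to 1.39 in normoxic and 0.959 to 2.15 in OIR libraries. Of the monocyte markers, Lyz2 rose 5.54-fold (edgeR adjusted p = 2.8e-08), Ccr2 had 7 normoxic and 68 OIR counts, Ly6c2 10 and 36, Plac8 25 and 137, and Chil3 54 and 55. The part of either cell type in the S100a8 and S100a9 counts was not tested.

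The other untested members had few or no counts in both groups. Anxa13 had 22 normoxic and 24 OIR counts, 14 of the latter in OIR replicate 6 (ratio 1.08, 95% counting interval 0.581 to 2.02). Anxa8 had 6 and 12, S100a3 12 and 7, S100a2 5 and 2, S100a14 2 and 4, and Anxa10 2 and 3 counts. S100g, S100z and S100a5 had no normoxic count and 3, 1 and 1 OIR counts. No difference in any of these members was detected in the fit without the count minimum (edgeR adjusted p = 0.232 to 0.939). At this depth differences can be missed. On the opposite strand S100g shares 2608 bases with Ctps2 (5441 counts) and Anxa8 14591 bases with A630023A22Rik (4 counts). As the strand setting of the counting is not given, the counts of S100g and Anxa8 are less certain. S100pbp stood at 4.07 to 5.17 FPKM in normoxic and 4.02 to 4.55 in OIR libraries and did not pass (log2 -0.08 ± 0.06 SE, edgeR adjusted p = 0.36).

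Genes that work with annexin A2 and S100A10, or in the repair of torn membranes, were mostly higher. Of 14 such genes 13 were tested: 10 rose, none fell, and Ahnak2, Hltf and Pdcd6 did not pass, where 16.4% of all tested genes rose and 14.8% fell. Their median log2 difference was 1.01. Plaur (27 normoxic and 273 OIR counts) and Plau (41 and 283) reached the count minimum through OIR alone, so their calls and the list's median are partly set by that filter. Both belong to the plasminogen activation system that annexin A2 gathers at the surface. Plaur, the urokinase receptor gene, stood at 0.0208 to 0.197 FPKM in normoxic and 0.743 to 1.17 in OIR libraries (9.94-fold, edgeR adjusted p = 4.1e-07). Plau, the urokinase gene, rose 6.79-fold (edgeR adjusted p = 2.6e-07), and Plat, the tissue-type activator gene, 2.85-fold, with 2.30 to 3.43 FPKM against 6.73 to 8.86 (edgeR adjusted p = 1.3e-09). Plg, the plasminogen gene itself, had 13 normoxic and 3 OIR counts and was not tested.

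Ahnak, the giant scaffold that binds the annexin A2 and S100A10 complex, was 2.12-fold higher (log2 1.08 ± 0.13 SE, edgeR adjusted p = 3.6e-06). The membrane repair genes Myof, Dysf and Trim72 were higher by 2.32, 2.19 and 2.01 times (edgeR adjusted p = 1.5e-06, 1.6e-04 and 0.024). Trim72 overlapped between groups. Cav1, which encodes the caveolar coat protein, rose 1.30-fold, and Sri and Pdcd6ip, for the calcium sensor sorcin and the adaptor ALIX, rose 1.26-fold and 1.19-fold. Ahnak2 (log2 -0.26), Pdcd6 (-0.11) and Hltf (0.03) had edgeR adjusted p-values of 0.11, 0.24 and 0.77.

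Of 8 receptors and targets of annexin A1 and of S100 proteins, 5 were tested, 2 rose and none fell. That is too few to set against the 31.1% of all tested genes that passed. Their median log2 difference was 0.40. Tlr4, a receptor for S100A8 and S100A9, stood at 0.01 to 0.0829 FPKM against 0.196 to 0.425 (5.77-fold higher, edgeR adjusted p = 4.1e-05). With 31 normoxic and 185 OIR counts it too reached the minimum through OIR alone. Bsg, the basigin gene, which is highly expressed in the retina and encodes another S100A9 receptor, stood at 504 to 556 FPKM against 678 to 717, without overlap (1.32-fold, edgeR adjusted p = 1.5e-06). Ager, which encodes the S100 receptor RAGE, had a log2 difference of -0.47 ± 0.22 (SE) and did not pass (edgeR adjusted p = 0.11). Nor did Pla2g4a (log2 0.50, edgeR adjusted p = 0.11), the phospholipase inhibited by annexin A1, or Cacybp (log2 0.00, adjusted p = 0.99), the S100A6 binding partner. The annexin A1 receptor genes Fpr1 and Fpr2 had 14 and 18 normoxic and 18 and 33 OIR counts, and Fpr3 was listed at 0. Fpr2 and Fpr3 overlap on the same strand, so the counts of both are uncertain for the reason given for S100a4. Within libraries 1 to 3, 4 genes of this list passed.

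A chosen list of 23 EF-hand genes outside the S100 family, many of them neuronal calcium sensors and buffers, went mainly the other way. The list is a part of that class, so its values do not describe EF-hand genes at large. Of 22 tested, 3 rose, 12 fell and 7 did not pass, against 16.4% of all tested genes that rose and 14.8% that fell. Their median log2 difference was -0.25. The calcium buffer genes Calb1 and Calb2 fell by 0.53 and 0.61 on the log2 scale, and the synaptic calcium sensor gene Cabp1 by 0.66 (edgeR adjusted p = 4.1e-05, 0.0011 and 8.3e-06). Those that rose were Capn2 (log2 0.39), Capns1 (0.13) and Rcvrn (0.29), which encode calpain subunits and the photoreceptor protein recoverin. The summed FPKM of the list, to which Rcvrn contributes most, overlapped between the groups (3049 to 3717 against 3091 to 3638). The library sets lay apart in this sum. Normoxic libraries 1 to 3 had 3049 to 3211 and 4 to 6 had 3615 to 3717. OIR libraries 1 to 3 had 3091 to 3257 and 4 to 6 had 3266 to 3638. Within each set the groups overlapped. Ganglion cell markers, measured beside the EF-hand genes, had 3 of 7 members lower and none higher, and their part in these values was not tested.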

How the data were processed

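Poly-A RNA of 12 mouse retina libraries was sequenced, per the labels' protocols. The submitters' processing notes name build GRCm39 and the tools Trimmomatic, HISAT2 (version 2.0.5) and HTSeq, with no role or order. Per the file headers, counts and FPKM of each gene stand side by side in the table the authors deposited, and the counts are whole numbers. Groups came from the sample labels. The members and lists were chosen with earlier results of these data known. Every gene matching the name rule was accounted for, those past the threshold with their values over libraries and the rest by range and counts. Of the pathway lists any gene past the threshold could be named, and up to 5 others each.

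Genes with a mean of at least 10 counts entered edgeR (version 4.0.16, in R version 4.3.3) with TMM scaling (factors 0.974 to 1.01), the quasi-likelihood test and Benjamini-Hochberg adjustment over all 18336 of them, at a threshold of 0.05. SE is the log2 fold change divided by the square root of the F statistic. Levels are the deposited FPKM. The interaction of group and library set (1 to 3, 4 to 6) was fitted the same way. Libraries of the same group differed by more than counting noise (chi-square over its degrees of freedom 3.04 to 15.3), so none were merged. The fitting code was tested on simulated data. Alternatives were other scalings and filters, blocks, each library set alone, DESeq2 (version 1.42.0), limma (version 3.58.1) on log2(FPKM + 1) or log2(FPKM + 0.1), and leaving out each library. Promoter windows came from RefSeq, and protein sequences were not used here.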

Additional observations from a re-analysis of the deposited data

Results flagged for a closer look

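S100a16 was at 25.91 FPKM in normoxic replicate 6, apart from the other 5 normoxic libraries at 21.0 to 22.3. A gap of this size, by Dixon's criterion for 6 libraries, was found in 1 of the 34 groups of 6 examined, and chance gives about 1 in 20. The S100a16 groups do not overlap with or without this library.

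The OIR difference of S100b was not the same in both library sets: as libraries 4 to 6 minus libraries 1 to 3 it was -0.9376 on the log2 scale (edgeR interaction test, adjusted p = 0.0083). The sets were defined from earlier results of these data. The marker sums of each set are given beside the result.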

How the results depend on the processing

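The 14 members that passed remained 14 with median-of-ratios factors, library totals, filterByExpr, DESeq2 and limma on FPKM. The count was 13 within libraries 1 to 3, 11 within libraries 4 to 6, and 15 with a block for the library set, which added S100b (edgeR adjusted p = 0.0299). Without a filter it was 15, the added gene being S100a9 (edgeR adjusted p = 0.0489), with S100a8 at 0.0650. Leaving out 1 library at a time gave 13 to 15 members, 9 to 11 partner genes, 2 to 3 receptor genes and 13 to 15 other EF-hand genes. S100b passed without normoxic replicate 6 (edgeR adjusted p = 0.038). Of the lists' counts, that of the receptors alone moved by over 1.5 times, to 4 within libraries 1 to 3, and the cause was not tested. None of the 14 called members changed sign under any of these settings. S100pbp, not called, had a log2 difference of 0.02 within libraries 1 to 3. Over all genes 5711 passed, against 7174 within libraries 1 to 3, 3701 within libraries 4 to 6 and 6457 with a block for the library set. The replicate numbers do not pair the libraries, since same-numbered libraries had correlations of deviations of -0.03 to 0.13. Normoxic replicates 1 to 3 each correlated best with OIR replicate 3, and normoxic replicates 4 to 6 with OIR replicate 5. The other OIR libraries were never the best match, so this does not show that the sets carry across the groups. With the replicate block 14 members, 10 partner genes, 2 receptor genes and 15 other EF-hand genes passed, as without it. Depth limits what can be said of the 12 untested members, all under 10 counts on average.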
